A study of Mus musculus with 4 samples.

Results

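Peaks of histone H3 acetylated at lysine 9 (H3K9ac) that lay far from any protein-coding gene were examined in the romidepsin library of a ChIP-seq study of mouse myeloid-derived suppressor cells. They were chosen by 3 criteria, a length under 5000 bp, no overlap of 1 bp or more with a peak of the CM library, and a distance of more than 100 kb from the span of every protein-coding gene in RefSeq. This gave 3538 desert peaks of 103336 romidepsin peaks in all (3.42%, exact Clopper-Pearson 95% interval 3.31 to 3.54). The members were selected on peak position, on peak length and on absence from the CM list, so these properties are described below and not tested.

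Cells under CM with romidepsin gave an immunoprecipitated library and an input library, and cells under CM alone gave the same pair, for 4 samples in all. All cells were suppressor cells grown from bone marrow and made senescent in vitro. CM is not expanded in the labels, which also give no dose, no duration of treatment and no animal number. Peak lists of the 2 immunoprecipitated libraries were used, and the inputs were not analysed here. With 1 library per condition, the lists stand side by side with no replicate check and no test between conditions. How many reads stand behind each list is unknown, and with more reads more and weaker peaks are called. Shares carry intervals that cover counting error only. These treat each peak, gap, window or gene as an independent draw. Yet 82.8% of desert peaks had another within 10 kb, so intervals over peaks can be much too narrow. Reads counted without molecular identifiers are also not independent molecules.

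H3K9ac is placed by histone acetyltransferases and removed by histone deacetylases, and is usually concentrated at the promoters and enhancers of active genes. Romidepsin inhibits class I histone deacetylases. Stretches without protein-coding genes, called gene deserts, can be silent chromatin, but many beside developmental and blood cell regulators hold long-range enhancers and long non-coding RNA (lncRNA) genes. Myeloid-derived suppressor cells are immature myeloid cells that restrain T cells.

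The cell label was checked against marker genes. All 15 suppressor and myeloid cell markers had a romidepsin peak within 1 kb of an annotated gene end (called a gene-end peak), and 8 of 15 had one in CM. Arg1, Cd33, Itgax, Ly6c1, Ly6g, Nos2 and S100a9 had none in CM. Lymphocyte markers had a gene-end peak at 8 of 10 genes with romidepsin and at 2 of 10 in CM, erythroid and megakaryocyte markers at 5 of 6 and 3 of 6, stromal and endothelial markers at 5 of 8 and 1 of 8, and neuron markers at 2 of 5 and 0 of 5. Over all 21883 protein-coding genes the shares were 63.8% with romidepsin and 48.8% in CM. The 8 of 15 in CM was near that share, so these short lists do not settle the cell label. Peaks at markers of other cell types were listed more widely with romidepsin as well. Their part in the results on desert peaks was not tested.

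Some desert peaks covered the start of an annotated lncRNA, and these give a view of the underlying sequence. RefSeq (GRCm38.p6) promoter windows run over 300 bases, with base 251 the first transcribed, and 58 such lncRNA windows of 55 genes lay wholly inside 53 desert peaks. The windows below belong to 3 genes whose peaks were among those with the highest fold enrichment, to the 3 highest by fold that hold an ETS motif, and to Mexis, a lncRNA of macrophages known to act on the neighbouring cholesterol exporter gene Abca1. They were chosen after their values were seen. Coordinates of peaks and windows are those of mm10. The sequences are written 5′ to 3′ on the strand of the gene. Capitals mark the letters AGGAAGT (ETS family, to which the myeloid factor PU.1 belongs), TGTGGT (RUNX) and TTGCNNAA (C/EBP), searched on both strands together with TGANTCA (AP-1), and no match overlapped another in these windows.
Gm33510: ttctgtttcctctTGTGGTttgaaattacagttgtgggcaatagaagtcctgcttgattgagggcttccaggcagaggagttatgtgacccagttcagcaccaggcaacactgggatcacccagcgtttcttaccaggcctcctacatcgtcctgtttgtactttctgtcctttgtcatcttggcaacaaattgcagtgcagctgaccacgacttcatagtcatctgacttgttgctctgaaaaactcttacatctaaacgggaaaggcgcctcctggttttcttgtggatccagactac
Gm31603: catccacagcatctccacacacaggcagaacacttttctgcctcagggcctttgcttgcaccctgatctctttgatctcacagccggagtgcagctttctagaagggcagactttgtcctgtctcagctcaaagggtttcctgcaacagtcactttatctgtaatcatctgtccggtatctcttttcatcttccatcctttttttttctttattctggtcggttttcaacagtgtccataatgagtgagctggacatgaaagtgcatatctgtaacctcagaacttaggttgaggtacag
Gm13470: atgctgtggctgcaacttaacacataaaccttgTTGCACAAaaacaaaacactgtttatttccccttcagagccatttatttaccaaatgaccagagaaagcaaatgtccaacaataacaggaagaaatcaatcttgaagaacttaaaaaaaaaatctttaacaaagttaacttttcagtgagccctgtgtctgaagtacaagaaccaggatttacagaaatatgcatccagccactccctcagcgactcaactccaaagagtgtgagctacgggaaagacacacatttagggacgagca
4930452A19Rik: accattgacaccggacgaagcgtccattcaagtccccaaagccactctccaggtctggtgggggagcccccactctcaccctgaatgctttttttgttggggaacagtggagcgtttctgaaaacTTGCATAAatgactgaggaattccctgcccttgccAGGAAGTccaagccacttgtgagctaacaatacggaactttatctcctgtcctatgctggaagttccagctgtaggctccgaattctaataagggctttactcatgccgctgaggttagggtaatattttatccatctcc
Gm26535: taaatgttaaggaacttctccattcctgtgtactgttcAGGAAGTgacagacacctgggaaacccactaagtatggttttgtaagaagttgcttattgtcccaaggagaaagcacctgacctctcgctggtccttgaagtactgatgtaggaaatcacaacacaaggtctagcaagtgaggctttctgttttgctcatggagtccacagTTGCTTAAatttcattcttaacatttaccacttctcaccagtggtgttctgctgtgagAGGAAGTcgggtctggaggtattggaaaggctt
Gm46069: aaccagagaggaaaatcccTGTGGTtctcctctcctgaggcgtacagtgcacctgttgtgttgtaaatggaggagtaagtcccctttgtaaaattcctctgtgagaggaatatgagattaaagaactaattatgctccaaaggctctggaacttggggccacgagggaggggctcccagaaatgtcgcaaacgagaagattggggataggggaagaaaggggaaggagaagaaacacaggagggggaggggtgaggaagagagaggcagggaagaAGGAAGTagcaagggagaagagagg
Mexis: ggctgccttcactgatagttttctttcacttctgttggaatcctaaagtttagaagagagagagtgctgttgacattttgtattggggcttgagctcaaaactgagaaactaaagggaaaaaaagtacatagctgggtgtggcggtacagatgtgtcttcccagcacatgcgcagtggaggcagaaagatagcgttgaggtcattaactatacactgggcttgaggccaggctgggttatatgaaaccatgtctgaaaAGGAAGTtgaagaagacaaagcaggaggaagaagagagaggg

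The window of Gm33510 (chr10:20838743-20839042, minus strand) lay in a peak of fold 3.39, 112.1 kb from Ahi1. That of Gm31603 (chr8:126729701-126730000, minus strand) lay in a peak of 3615 bp and fold 3.39, 134.2 kb from Irf2bp2, which encodes a transcriptional corepressor. Both peaks were among the stronger ones, since the median fold of all desert peaks was 2.60.

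The window of Gm13470 (chr2:46442856-46443155, minus strand) stood 1325.1 kb from Zeb2, its nearest protein-coding gene, and 1324.5 kb from the nearest CM peak. Its peak had a length of 3214 bp and a fold of 3.38. Both it and its neighbours were among the most remote peaks of the set.

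The 3 windows chosen for an ETS motif were those of 4930452A19Rik (chr17:9775817-9776116, minus strand), Gm26535 (chr10:37319255-37319554, plus strand) and Gm46069 (chr8:34689909-34690208, minus strand). Their peaks had folds of 3.26, 3.26 and 3.07. Gm26535 held AGGAAGT at bases 39 to 45 and again at 268 to 274. The Mexis window (chr4:53270183-53270482, minus strand) lay in a peak of 1019 bp and fold 2.68, 109.6 kb from Abca1, with the motif at bases 259 to 265.

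Of the 58 windows, 13 held AGGAAGT on either strand (22.4%, interval 12.5 to 35.3), against 9.87% of all 11588 lncRNA windows. For TTGCNNAA the shares were 20.7% (interval 11.2 to 33.4) and 12.0%, for TGANTCA 15.5% (interval 7.35 to 27.4) and 9.31%, and for TGTGGT 20.7% (interval 11.2 to 33.4) and 20.05%. The interval for AGGAAGT stood above the share over all lncRNA windows, and the other intervals included theirs. The median GC content was 47.0% in the windows inside desert peaks and 48.3% over all lncRNA windows. Several windows shared a peak and some overlapped in sequence, as at Gm33323 and Gm33398, which both held AGGAAGT. The 58 windows are thus not independent, their intervals can be too narrow, and no correction was made for searching several motifs. A match of letters is a description of these windows only.

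Desert peaks were short and weak, and in this they resembled the far more numerous short peaks near genes. Their median length was 801 bp (interquartile range 485 to 1441.5), and 127 of them (3.59%) had the shortest length in the romidepsin list, 293 bp. The 83925 other romidepsin peaks under 5000 bp without a CM peak, which lay inside protein-coding genes or within 100 kb of one, had a median length of 778 bp. Both sets were thus dominated by peaks under 1000 bp, with 59.4% of desert peaks and 60.8% of the others below that length.

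Fold enrichment here is the value that the authors' peak caller gave each peak over its background, averaged over the whole region. It had a median of 2.60 among desert peaks (interquartile range 2.404 to 2.882, lowest 1.72, highest 4.51) and 2.56 among the peaks near genes. A fold of at least 3 was reached by 645 desert peaks (18.2%, interval 17.0 to 19.5), against a background of 14.7% among short CM-free peaks near genes. Peaks outside genes but within 100 kb stood between, at 17.3%, and peaks inside genes reached it in 13.3% of cases. The median −log10 q was 2.23 for desert peaks and 2.10 near genes, and 77 desert peaks (2.18%) reached a −log10 q of 5. When the romidepsin list was limited to as many of its strongest peaks as the CM list holds, 191 desert peaks were left.

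**Figure D1:**
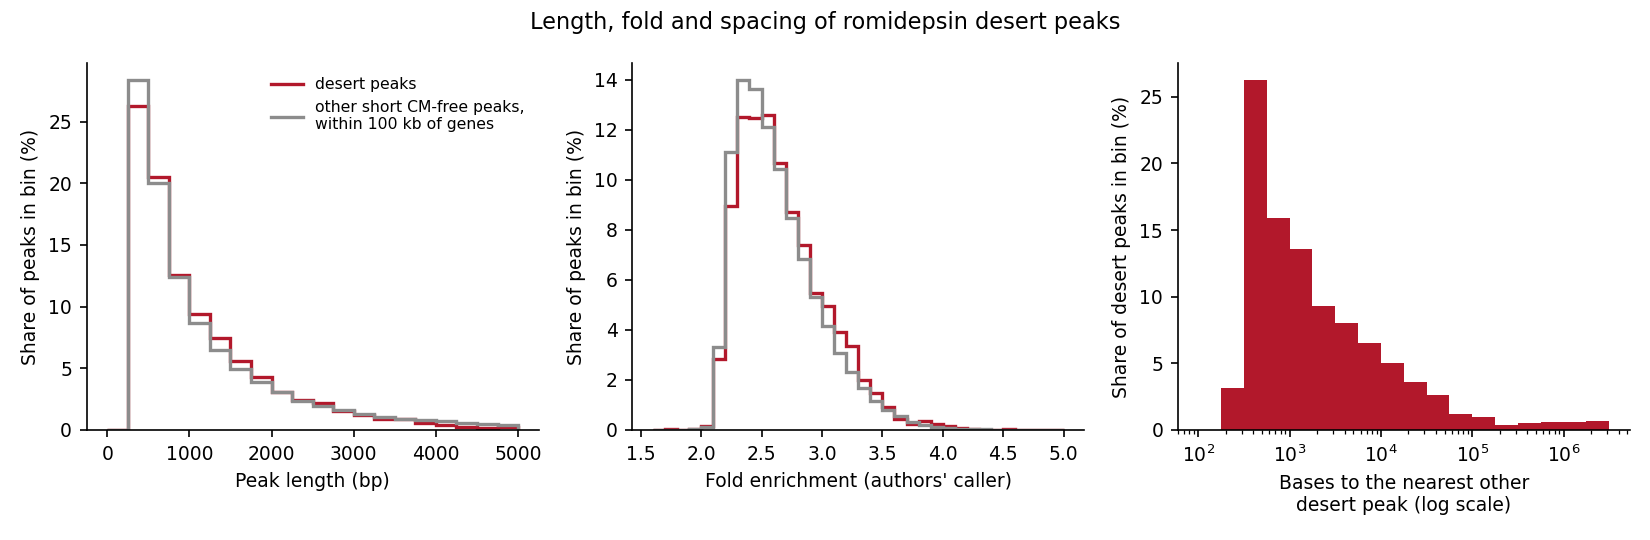
Share of peaks per bin of length (bp), of fold enrichment and, on a log axis, of bases to the nearest other desert peak. Desert peaks are in red and the 83925 other short romidepsin peaks without a CM peak in grey. The red and grey outlines nearly coincide, with medians of 801 and 778 bp and folds of 2.60 and 2.56, and most desert peaks have a neighbour within 10 kb.

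The strongest desert peak (chr10:43751836-43752982) had a fold of 4.51 and a −log10 q of 8.32 and lay 121.2 kb from Qrsl1, in the gap between that gene and the surface antigen gene Cd24a. The next folds were 4.24 near Cd47, the gene of a signal that restrains phagocytosis (chr16:50045665-50046865), 4.21 near the calcium pump gene Atp2b1 (chr10:98774186-98775109), 4.18 within the immunoglobulin heavy chain locus (chr12:115145396-115146342) and 4.16 near Kcnrg (chr14:61865404-61866687). These 5 peaks were all between 924 and 1284 bp long, so none was among the longest.

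The longest desert peaks measured 4971 bp near Eea1, 4904 bp near Pik3r1 and 4902 bp near Hs6st1. Just outside the length limit lay peaks of 5012, 5028 and 5088 bp. At the distance limit, the innermost members stood 100.016, 100.054 and 100.063 kb from a gene, and the peaks just outside stood 99.968, 99.966 and 99.931 kb away. Neither limit fell at a break in the values.

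Few H3K9ac peaks of any kind lay in these stretches. In all, 3728 romidepsin peaks were more than 100 kb from protein-coding genes (3.61%, interval 3.49 to 3.72), against 167 of 16419 CM peaks (1.02%, interval 0.869 to 1.18). Of the 3728, 143 overlapped a CM peak and 84 were 5000 bp or longer, with 37 in both classes, which left the 3538 desert peaks. They covered 3910.97 kb. A further 5 romidepsin peaks on contigs without an annotated gene were left out. The CM peaks in deserts had a median length of 544 bp.

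The protein-coding annotation sets what counts as a desert. When non-coding genes and pseudogenes were counted as genes too, 274 of the peaks stayed more than 100 kb from every gene. Of the 3538, 1171 overlapped a gene of another type (33.1%, interval 31.5 to 34.7), against 22.2% of the 28016 short CM-free peaks outside protein-coding genes but within 100 kb of one. Most of these were lncRNA genes, with 1034 desert peaks (29.2%, interval 27.7 to 30.8) over 344 lncRNA genes, against 19.5% of the nearer peaks. These shares are not corrected for how much of each kind of sequence is annotated as such genes. The 1171 include 84 peaks within the span of the Igh locus. Genes typed as pseudogene were overlapped by 25 desert peaks (0.707%, interval 0.458 to 1.04), against 1.67% of the nearer peaks. For those typed as transcribed pseudogene the values were 12 (0.339%) and 0.496%. None of 1005 microRNA hairpins overlapped a desert peak, and overlap of hairpins with the nearer peaks was not counted.

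The lncRNA genes with most desert peaks were Gm30382 beside Adgrl2 with 35, Lncpint with 26 and Gm13986 beside Thbs1 with 23. Lncpint is a p53-responsive lncRNA that lies between Klf14 and Mkln1. Morrbid followed with 19, and Pvt1, which is transcribed beside Myc, had 17. Morrbid is known in mouse myeloid cells as a repressor of the neighbouring gene Bcl2l11, which encodes the pro-apoptotic protein BIM. These 5 genes span 124.9 to 264.4 kb, and the counts are not corrected for gene length.

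Desert peaks were unevenly spread over the chromosomes. Chromosome 10 held 479 and chromosome 13 held 449, followed by chromosome 2 with 290 and chromosome 12 with 271. Per Mb of sequence more than 100 kb from genes this was 14.1, 13.4, 7.34 and 6.0 peaks. The lowest autosomal density was on chromosome 7, with 29 peaks and 1.05 per Mb, and chromosome X held 35, or 0.603 per Mb. None lay on chromosome Y, which had 47.29 Mb of such sequence and 12 short CM-free peaks in all. The order was not that of chromosome size, and over all chromosomes the density was 4.50 per Mb.

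Most desert peaks were in gaps between neighbouring genes that held 10 or more of them. Over all chromosomes 105 such gaps held 2623 peaks (74.1%). On chromosome 10, 16 such gaps held 414 of the 479, and on chromosome 13, 12 held 373 of the 449. These were the highest numbers of such gaps, followed by 9 on chromosome 2 with 245 of the 290 peaks. Chromosomes 7 and X had no gap with as many as 10. Median lengths per chromosome ran between 532 bp on X and 970 bp on 7. Assembly gaps and sequence to which short reads cannot be assigned were not subtracted from these densities, and their part was not tested.

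**Figure D2:**
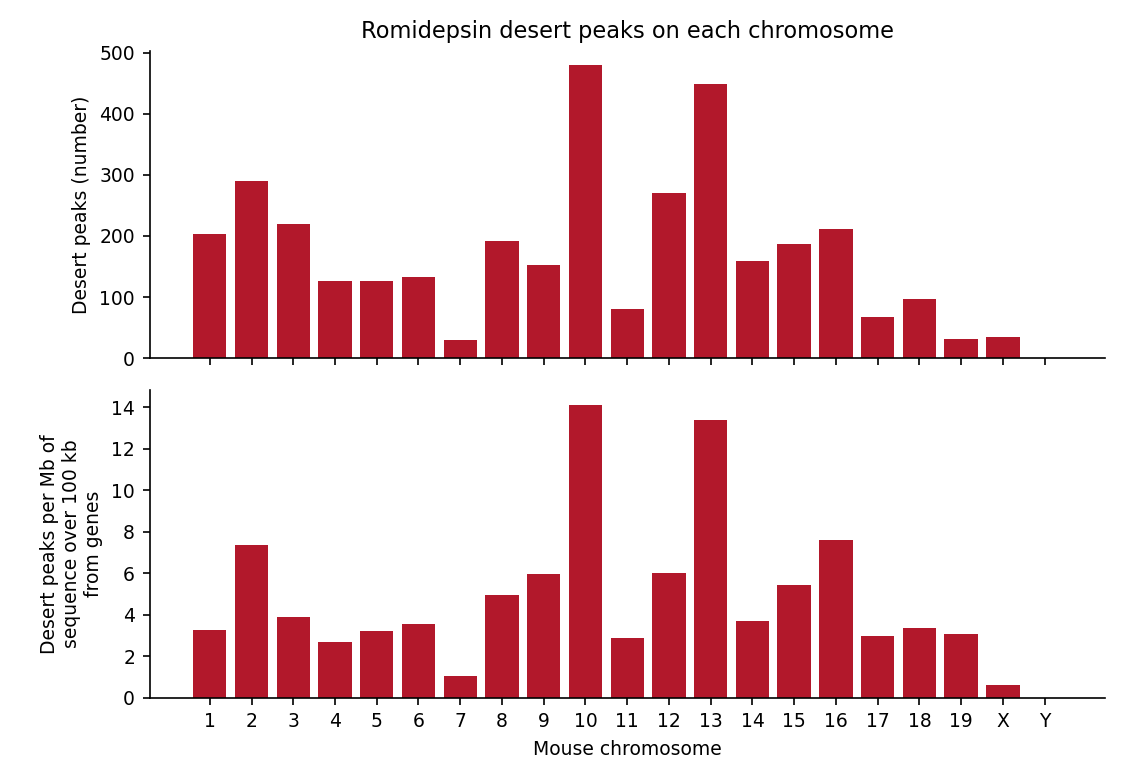
Number of desert peaks on each mouse chromosome (upper bars) and number per Mb of sequence more than 100 kb from protein-coding genes (lower bars). Chromosomes 10 and 13 stand out in both, at 14.1 and 13.4 per Mb, and chromosomes 7, X and Y are lowest.

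Desert peaks occurred in dense groups. The nearest other desert peak was a median of 1198.5 bases away (interquartile range 496 to 5059.75), and 82.8% of desert peaks (interval 81.5 to 84.0) had another within 10 kb. Joined at gaps of up to 10 kb, they formed 1232 groups. In 65 groups of 10 or more lay 966 peaks (27.3%), in 321 groups of 3 to 9 lay 1489 (42.1%), in 237 pairs lay 474 (13.4%), and 609 stood alone (17.2%). No pair was closer than 301 bases. In addition, 583 desert peaks (16.5%) were within 10 kb of a desert romidepsin peak that was longer or overlapped a CM peak. With the distance limit at 50, 200 and 500 kb, the share with a neighbour within 10 kb was 84.13%, 77.28% and 70.12%. That share is not given here for short CM-free peaks near genes, so grouping is not shown to be particular to desert peaks.

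Peaks in large groups were somewhat longer and stronger than isolated ones. The median length was 930 bp in groups of 10 or more and 740 bp among those alone, and the share with a fold of at least 3 was 22.7% (interval 20.1 to 25.4) and 12.0% (interval 9.51 to 14.8). Peaks in groups of 10 or more were also closer to CM peaks, at a median of 40056 bases against 191421 bases for those alone. Among the 191 desert peaks left in the list of strongest peaks, 18.85% had a neighbour within 10 kb and 4 were in groups of 3 or more. Fewer peaks have fewer neighbours in any case, and the part of peak strength was not tested.

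The largest group held 40 desert peaks over 126.4 kb (chr12:25196195-25322635), 100.1 kb from Id2, which encodes an inhibitor of basic helix-loop-helix transcription factors. Peaks covered 51.4 kb of it, or 40.65%, and it contained no CM peak. Its edge toward Id2 was set by the 100-kb rule. Other romidepsin peaks continued inward from 98.0 kb, and CM peaks lay at 93.79 and 94.96 kb from Id2. The second held 30 peaks over 109.9 kb between Ly86, a partner of a Toll-like receptor homologue of myeloid and B cells, and Rreb1. The third held 28 over 104.6 kb between Eea1, an early endosome protein gene, and Btg1, an antiproliferative factor gene. After these came 24 peaks between Klf14 and Mkln1 and 22 peaks between the kinase gene Map3k1 and Ankrd55. These 5 groups had median folds between 2.49 and 2.90, so they were runs of many weak peaks and not of single strong ones.

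Most deserts held no desert peak. Between neighbouring protein-coding genes there were 1689 gaps over 200 kb, with 785.7 Mb of sequence more than 100 kb from genes. A desert peak was found in 400 of them, and 1289 gaps with 72.2% of the sequence had none. The 50 fullest gaps held 51.7% of the desert peaks in 4.69% of the sequence. Of all desert peaks, 1 lay beyond the outermost gene of a chromosome (chr9:3198871-3199169, fold 3.10) and belonged to no gap. A gap of 200 to 300 kb had 17.1 desert peaks per Mb, one of 300 to 500 kb 12.5, one of 500 kb to 1 Mb 5.72, one of 1 to 2 Mb 2.23, and one over 2 Mb 1.54. Density fell with every step in gap size. Sequence far from genes exists only in long gaps, so gap size and distance from genes cannot be told apart in these values.

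The fullest gap, between Adam6a and Zfp386 on chromosome 12, held 84 desert peaks and is no gene desert in the usual sense. It contains the V segments of Igh, the immunoglobulin heavy chain locus, which RefSeq does not class as protein-coding genes. The 84 peaks had a median length of 953 bp and folds between 2.11 and 4.18, and 1 CM peak lay in the gap. All lay between the first and last of 184 V segments and V pseudogenes, and 36 peaks covered one. The covered segments belonged to 2 families, Ighv1 with 27 of 92 and Ighv8 with 9 of 16, and no segment of another family was covered.

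Along the V region the peaks were on the side away from Adam6a. Divided into 3 equal lengths, it held 0 peaks in the length next to Adam6a, 20 in the middle and 64 in the length next to Zfp386, where the numbers of V segments were 68, 71 and 45. The last segment of a family other than Ighv1 and Ighv8 began at base 114564578, and the first desert peaks of the gap began at base 114930929. Position and family thus cannot be told apart for the 36 peaks that covered a segment. Segments of Ighv1 and Ighv8 began at bases 114351705 and 114332796, ahead of the first desert peak, and those ahead of it were not covered. Segments of 1 family are alike in sequence, and how reads with several matches were treated is not given in the sources used here. The part of such reads was not tested. Other antigen receptor loci held few desert peaks, with 3 at Tcra, 2 each at Igk and Igl, and 1 at Tcrb.

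Next came Eea1 to Btg1 with 67 desert peaks, Id2 to Rnf144a with 66, Gadd45g to Diras2 with 61 and Nmbr to Cited2 with 61. Gadd45g encodes a stress-induced protein and Cited2 a transactivator that binds the acetyltransferases CBP and p300. In the gap of 2951.8 kb between Nmbr and Cited2, 60 of 61 peaks were nearer Cited2, which had a gene-end peak in CM, than Nmbr, which had none. In that between Id2 and Rnf144a, 61 of 66 were nearer Id2, although both genes had a gene-end peak in CM. The peaks were spread over most of the gap between Eea1 and Btg1, with 40 nearer Eea1 and 27 nearer Btg1.

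Further gaps showed both arrangements. Zeb2 to Acvr2a held 55 desert peaks, of which 46 were nearer Zeb2, a zinc finger repressor gene. A group of 21 lay 102.1 kb from Zeb2 and others lay out to 1331.0 kb. Runx1 to Setd4 held 54, with 35 nearer Runx1, a master regulator of blood formation, in groups of at most 9. In the gap beside Myc, which encodes a growth-promoting transcription factor, 300-kb steps from Myc held 19, 12, 1, 0, 0 and 10 desert peaks. The last 10 were at the Gsdmc end, and the middle of that gap was nearly empty.

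**Figure D3:**
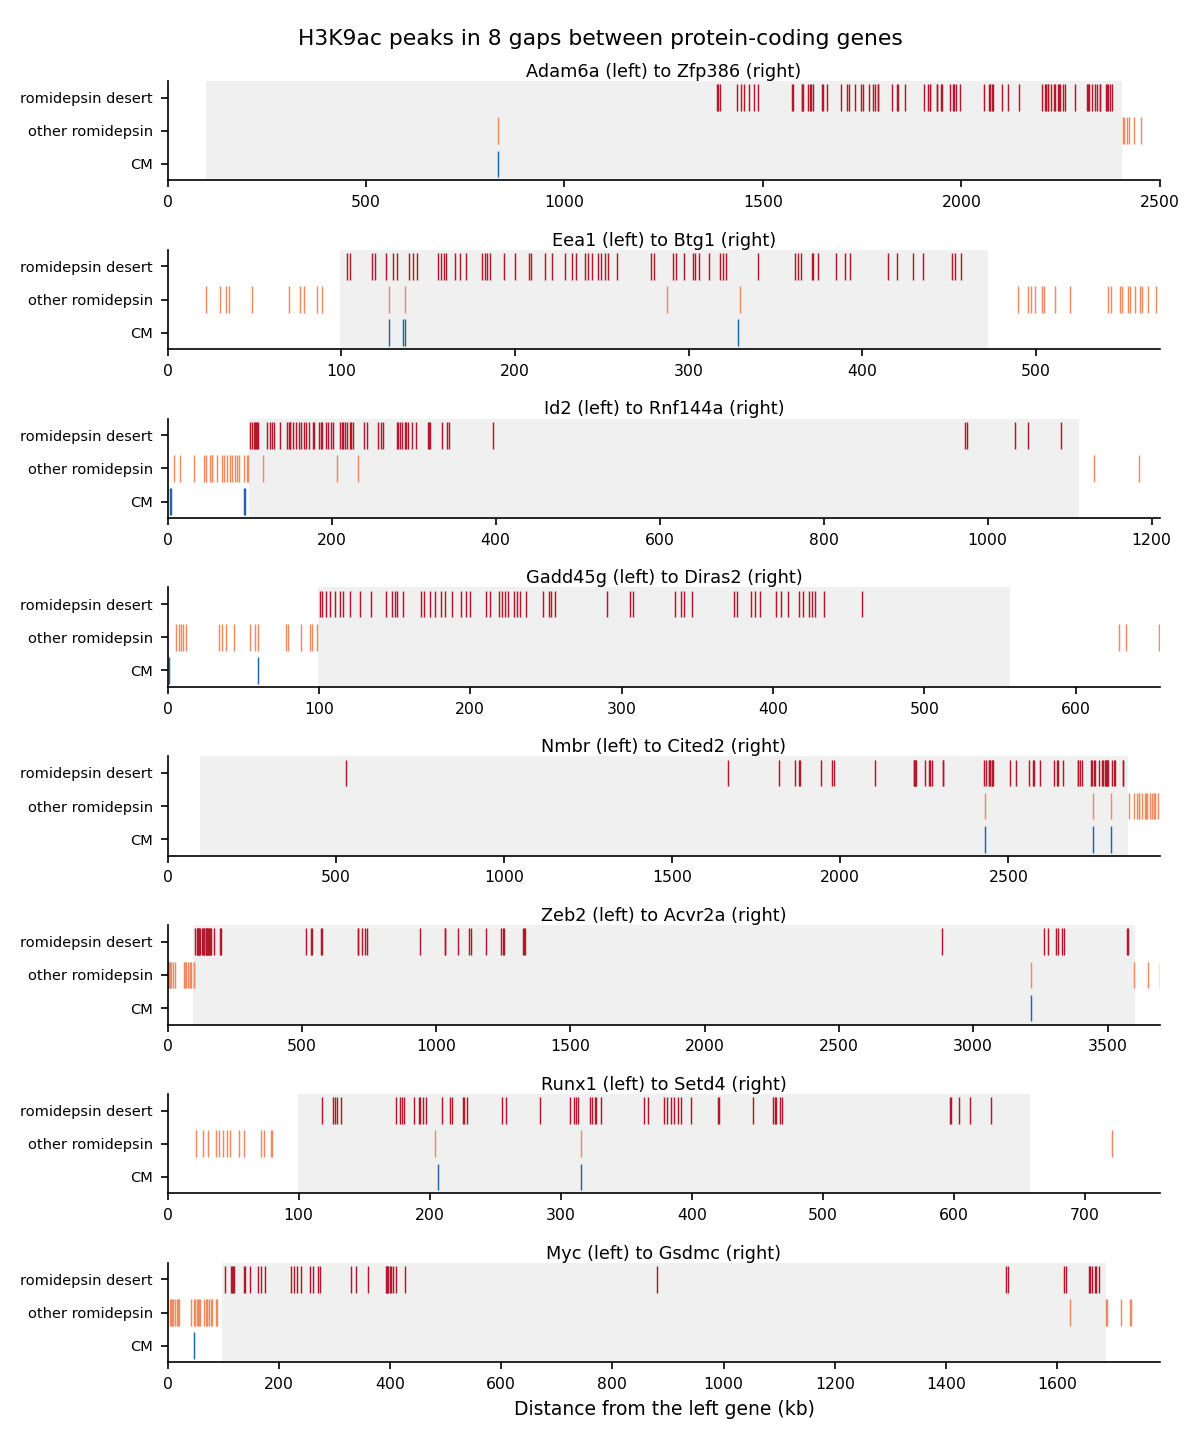
Peaks in 8 gaps between protein-coding genes, by distance from the left gene in kb. In each panel ticks mark desert peaks (top row), other romidepsin peaks (middle row) and CM peaks (bottom row), and grey marks sequence more than 100 kb from both genes. Desert peaks crowd toward Zfp386, Id2, Cited2, Zeb2 and Myc, and spread over most of the gap between Eea1 and Btg1.

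By density, short gaps led. Avpr1a to Ppm1h had 10 desert peaks in 23.974 kb of eligible sequence, or 417.1 per Mb. Smim20 to Rbpj, the gene of the DNA-binding effector of Notch signalling, had 21, or 271.9 per Mb. Rad51b to Zfp36l1, the gene of an mRNA decay factor, had 15, or 252.1 per Mb. Ly86 to Rreb1 had 40 (251.0 per Mb) and Dlx2 to Itga6, an integrin gene, had 10 (249.2 per Mb). With so little sequence in a gap, a few peaks make a high density.

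Desert peaks were denser beside genes that had an H3K9ac peak in CM as well. In the 196 gaps where both bordering genes had a gene-end peak in the CM list, 57.1% held a desert peak (interval 49.9 to 64.2) and the density was 18.6 per Mb. In the 690 gaps with 1 such gene the values were 30.3% (interval 26.9 to 33.9) and 5.19 per Mb, and in the 803 gaps with none 9.84% (interval 7.87 to 12.1) and 0.975 per Mb. In gaps with 1 such gene, 1202 of 1750 desert peaks (68.7%, interval 66.5 to 70.9) were nearer to it than to the gene without. Where neither bordering gene had a gene-end peak in either list, 28 of 600 gaps held a desert peak, at 0.35 per Mb. Density and bordering CM peaks thus stood in the same order, and median gap lengths in the 3 classes were 374.6, 428.7 and 424.2 kb.

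Gaps that held a CM peak of their own also held more. The 93 gaps with a CM peak more than 100 kb from genes had 1610 desert peaks, or 26.4 per Mb, and the 1596 gaps without one had 1927, or 2.66 per Mb. A CM peak was within 10 kb of 11.2% of desert peaks and within 100 kb of 42.2% (interval 40.6 to 43.9), against 37.1% and 93.2% of the short CM-free peaks near genes. The median distance to the nearest CM peak was 123038 bases, so most desert peaks lay over 100 kb from any CM peak. Desert peaks had to lie more than 100 kb from genes, and only 1.02% of CM peaks lay that far out. The greater distance from CM peaks than that of peaks near genes is thus largely set by the rule.

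Density also fell with distance from the gene. Over all nearest genes it was 10.1 desert peaks per Mb at 100 to 150 kb, 8.85 at 150 to 200 kb, 4.94 at 200 to 300 kb, 2.02 at 300 to 500 kb and 0.698 beyond 500 kb. Where the nearest gene had a gene-end peak in CM, the densities were 23.6, 21.4, 11.6, 4.68 and 1.83 per Mb. Where it had one with romidepsin only they were 14.0, 11.2, 7.1, 1.43 and 0.539, and where it had none 1.85, 1.74, 1.03, 0.694 and 0.137. At every distance the order of the 3 classes of gene was the same. The median distance of a desert peak to its nearest gene was 164.8 kb, and the farthest pair stood 1632.9 and 1631.9 kb from Pabpc4l on chromosome 3.

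**Figure D4:**
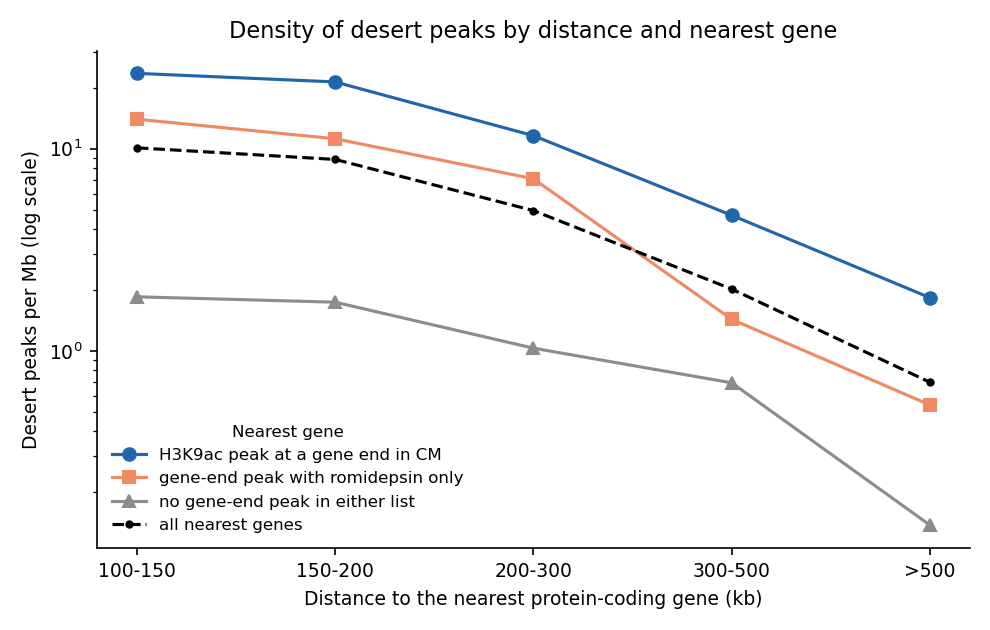
Desert peaks per Mb (log scale) by distance to the nearest protein-coding gene in kb, for genes with a gene-end peak in CM (circles), with romidepsin only (squares) or in neither list (triangles), and for all genes (dashed line). Density falls with distance in each class, between 23.6 and 1.83 per Mb for genes with a CM peak and between 1.85 and 0.137 for genes with none.

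The nearest genes numbered 541. Each of 159 was nearest to 1 desert peak, and 102 genes with 10 or more accounted for 2170 peaks. A gene-end peak was present with romidepsin at 430 of the 541 (79.5%, interval 75.8 to 82.8) and in CM at 329 (60.8%, interval 56.6 to 65.0). Over all 21883 protein-coding genes the shares were 63.8% with romidepsin and 48.8% in CM, and among the 2811 genes that border a gap over 200 kb, which are the ones that could be nearest, they were 47.0% and 34.4%. Counted by peaks, 74.3% of desert peaks had a nearest gene with a gene-end peak in CM, close to the 72.9% of short CM-free peaks outside genes but within 100 kb.

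Zfp386, at the end of the Igh locus, was nearest to 84 desert peaks, Id2 to 61, the adhesion receptor gene Adgrl2 to 60 and Cited2 to 60. Jarid2, which encodes a partner of the Polycomb repressive complex, was nearest to 50, Eea1 to 48 and Zeb2 to 46. The zinc finger factor gene Klf6 was nearest to 43, Gadd45g to 42 and Klf4, a monocyte transcription factor gene, to 40. All 10 had a gene-end peak in CM, and the strongest gene-end peak of each was longer and of lower fold in the romidepsin list. The same was seen at nearly all genes, since over 10677 protein-coding genes with a gene-end peak in both lists it was longer with romidepsin at 99.5% and of lower fold at 97.0%. The folds rest on the background of each list. At Id2 it was 10773 bp long with romidepsin (fold 4.54) and 3679 bp in CM (fold 6.30), at Cited2 9734 bp with romidepsin (fold 4.03) and 4257 bp in CM (fold 6.58), and at Klf4 6426 bp with romidepsin (fold 4.88) and 3892 bp in CM (fold 6.02).

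Myeloid and blood cell regulators were often nearest to desert peaks. Of 39 listed genes, 19 border a gap over 200 kb, and 12 of these were nearest to at least 1 desert peak (63.2%, interval 38.4 to 83.7), against a background of 19.2% of all 2811 bordering genes. Together they accounted for 235 peaks. The gene lists were written with earlier results of these data known, so the shares of lists are descriptions and depend on which genes were put in which list. Besides Id2 and Klf4 these were Myc and Runx1 with 35 each, the repressor gene Bcl6 with 26, Maf, a macrophage transcription factor gene, with 17, Mef2c with 9, Cebpb, which encodes a factor of emergency myelopoiesis, with 6, Egr2 and Gata3 with 2 each, and Kit and Tox with 1 each. A gene-end peak in CM was present at 12 of the 19. Of those 12, 8 were nearest to a desert peak, and of the 7 without one, 4 were. Among all bordering genes 33.9% with a CM gene-end peak (interval 30.9 to 37.0) and 11.5% without (interval 10.1 to 13.0) were nearest to one.

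Of 62 bordering developmental transcription factor genes, 8 were nearest to a desert peak (12.9%, interval 5.74 to 23.9). This interval included the 19.2% of all bordering genes, and 11 of the 62 had a gene-end peak in CM. The 8 were Zeb2 with 46 peaks, Bcl11a with 14, Sox4 with 11, Tshz1 with 8, Foxq1 and Sall3 with 5 each, and Satb1 and Sox6 with 1 each. Of the 11 with a CM peak, 6 were nearest to a desert peak, and of the 51 without, 2 were.

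Cell adhesion and synapse genes, which border many of the largest gaps, gave 4 of 74 (5.41%, interval 1.49 to 13.3). These were Cdh12 with 2 desert peaks and Cdh6, Sema3a and Sema6d with 1 each, and 1 of the 74 had a gene-end peak in CM. Receptor clusters of smell and pheromone sensing gave 2 of 26, predicted genes 30 of 428 (7.01%), and secreted inflammatory factors 1 of 2, with 1 peak near the angiogenic factor gene Vegfa. Since list genes differ in how many carried a CM peak, the share of a whole list does not separate the list from the acetylation of its genes in CM. The counts split by CM peak above, for blood regulators and developmental factors, rest on few genes, and their difference was not tested.

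**Figure D5:**
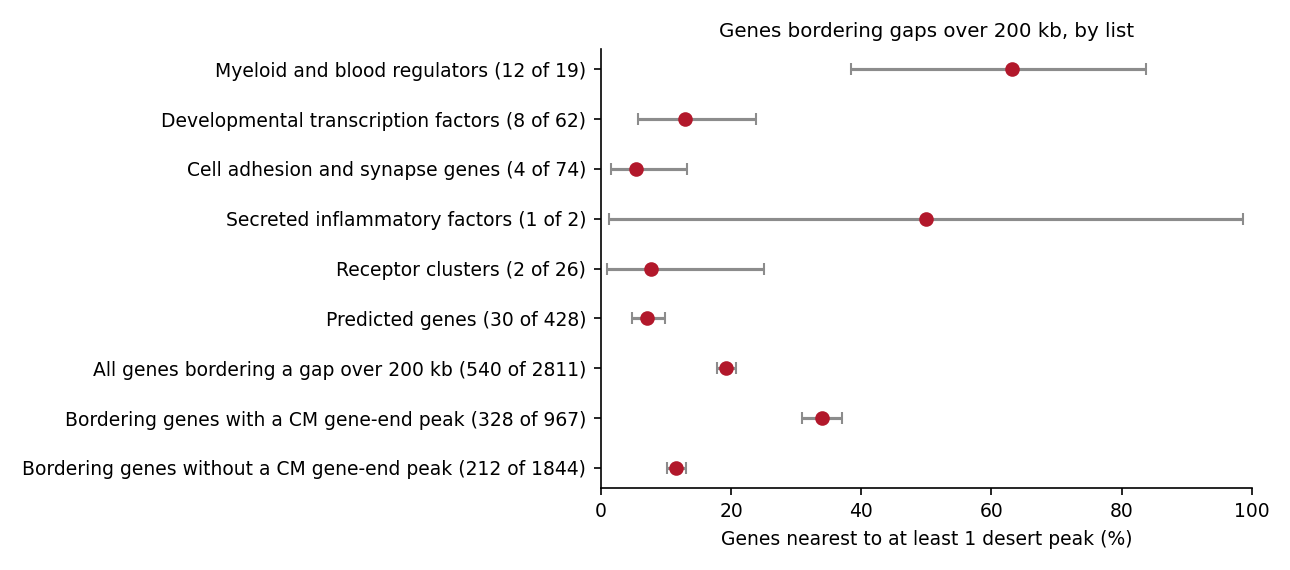
Share of genes bordering gaps over 200 kb that were nearest to at least 1 desert peak, by list, with exact 95% Clopper-Pearson intervals (bars) and counts in brackets. Myeloid and blood regulators stand at 63.2%, developmental transcription factors at 12.9% and adhesion and synapse genes at 5.41%, against 19.2% of all bordering genes. The lists were written with earlier results of these data known.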

How the data were processed

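H3K9ac ChIP-seq peak lists of 2 immunoprecipitated libraries, 1 per condition, were used. Per the submitters' processing notes, Bowtie2 2.4.4, MACS2 2.2.7.1 and deepTools 3.5.1 were used with build mm10. Settings, read filters and the use of the inputs are not given in the sources used here. For each broad peak the deposited lists give a score, a fold enrichment (ratio) over background, and −log10 values of the p and the q of the peak, all as the authors' caller wrote them. The score was not used. Depth is unknown.

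Positions were counted with 1 as the first base. Gene spans came from RefSeq GRCm38.p6, the assembly of mm10, which gave 21883 placed protein-coding genes without strand, so gene ends were windows of 1 kb around both ends. Distances are bases between intervals. Python 3.11.15, pandas 2.3.3, NumPy 2.4.6 and SciPy 1.17.1 were used, and interval functions were tested on simulated data. The members and gene lists were chosen with earlier results of these data known. Of 219 list genes 1 was not matched. Named peaks, gaps and genes were those highest in fold, length, distance or count, those at the limits, and list genes. Exons and untranslated regions were not analysed here. 1 promoter window is not reported here.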

Additional observations from a re-analysis of the deposited data

How the results depend on the processing

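The lists rest on 1 library per condition of unknown depth, so no value has a replicate error, and the peak calling could not be repeated with other settings. No paired analysis was possible because the result comes from no test and each condition has 1 library. Sequence that short reads cannot be assigned to was not removed. The number of desert peaks rests on weak peaks, and on counting only protein-coding genes. Of 155 recomputed values 74 moved by less than their interval, or for counts and densities stayed within 1.5 times; the 81 others follow, and their causes were not tested unless the setting itself removes peaks.

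Requiring a −log10 q of at least 2 left 2139 desert peaks (2.721 per Mb, median length 1187 bp, median fold 2.811), with 73.96% having a neighbour within 10 kb, 1204 in groups of 3 or more, and 83.33% of nearest genes with a gene-end peak with romidepsin. At a −log10 q of at least 5 these values were 77 peaks, 0.098 per Mb, 1725 bp, 3.763, 5.195%, 0 and 89.39%, the median distance to a gene was 160.6 kb, and 45.45% had a CM peak within 100 kb. At a fold of at least 3 they were 645 peaks, 0.8196 per Mb, 1651 bp, 3.207, 44.65%, 158 and 84.8%. With as many strongest romidepsin peaks as CM peaks, a setting chosen after seeing the data, they were 191 peaks, 0.2431 per Mb, 1863 bp, 3.486, 18.85%, 4 and 88.89%. Without the Igh gap between Adam6a and Zfp386, also left out after seeing the data, 3454 peaks remained and each of the 9 values moved by less than its interval or stayed within 1.5 times.

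With a distance of more than 50 kb there were 7014 peaks (6.966 per Mb, 4967 in groups of 3 or more), at a median of 100.7 kb from genes, 84.13% with a neighbour and 62.53% with a CM peak within 100 kb. With more than 200 kb there were 1206 (2.221 per Mb, 726 in groups), at 277 kb, with 77.28%, 25.87% and a median length of 757 bp. With more than 500 kb there were 164 (0.6984 per Mb, 71 in groups), at 708.7 kb, with 70.12%, 9.146%, 678.5 bp, a median fold of 2.581 and 64.52% of nearest genes with a gene-end peak. Counting all annotated genes left 274 (1.058 per Mb, 168 in groups), at 131.7 kb, with 78.83%, 23.72% and 31.25%.

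Merging romidepsin peaks closer than 1 kb gave 2297 peaks (2.922 per Mb, 1048 in groups), a median length of 966 bp, a median fold of 2.624, a median distance of 169.7 kb, 66.78% with a neighbour and 35.52% with a CM peak within 100 kb. A length under 2000 bp gave 692 bp, 2.557 and 78.82% with a neighbour. Without peaks within 10 kb of a CM peak the median distance was 167.7 kb, with 34.95% having a CM peak within 100 kb and 80.84% a neighbour. With CM overlap not considered, 43.91% had a CM peak within 100 kb. A neighbour lay within 1, 5, 50 and 100 kb of 45.31%, 74.82%, 93.61% and 95.2% of desert peaks. A CM peak lay within 10 and 500 kb of 11.19% and 93.7%. Over whole genes, 84.47% of nearest genes had a romidepsin peak.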

Other observations

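Desert peaks also occurred where neither bordering gene had a gene-end peak in CM, with 363 peaks in 79 gaps. The highest counts were between Map3k1 and Ankrd55 (46, with 3 CM peaks in the gap), between Kcnrg and Dleu7 (45, with 8 CM peaks) and between Eci2 and Cdyl (21, with none). At Eci2 and Cdyl gene-end peaks were absent from both lists. The gap between Mef2c and Cetn3 held 9 desert peaks, all nearer Mef2c, the gene of a myeloid and muscle transcription factor, at 389.1 to 566.3 kb, and gene-end peaks were absent at both genes in both lists.

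Between Bcl2l11 and Spdye4c, the gap that holds Morrbid, desert peaks formed groups of 20, 6 and 12 that began 101.4, 182.4 and 273.7 kb from Bcl2l11. The highest fold in them was 3.65.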
